A study of Mus musculus with 10 samples.

Results

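The transcript levels of p53 (Trp53) and 9 genes tied to it were compared between lung squamous cell carcinomas (SCC) and wild-type (WT) lungs. The 10 genes were the p53 relative Trp73, the p53 inhibitor Mdm2, and the p53 targets Cdkn1a, Ccng1, Sesn2, Phlda3, Trp53inp1, Gtse1 and Sfn. They were chosen by name from the microarray's annotation and account for 10 of the 19096 genes and 16 of the 41174 probes measured. Where 2 probes read a gene, the brighter of them over all arrays stood for it, and the dimmer one is given beside it. RNA came from 5 WT lungs, taken from Lkb1f/f mice in which the floxed Lkb1 gene is intact, and from 5 SCC of CCSPiCreLkb1f/f mice, in which a Cre recombinase driven by the club cell secretory protein promoter deletes Lkb1 in the airway epithelium. The kinase Lkb1 is a tumour suppressor. All mice were labelled as strain B6.129, aged 13 months and untreated, both groups carried the floxed allele, and each sample was read on 1 Agilent single-colour microarray. The labels do not say whether the 5 samples of a group came from separate animals, so the p-values measure the spread between these samples. The WT samples were whole lungs and the SCC samples were tumour tissue, so a lower share of cells of a type and less RNA per cell cannot be told apart.

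p53 is a transcription factor that is kept scarce by Mdm2, a ubiquitin ligase whose gene is itself switched on by p53, and its protein level is set mainly by degradation rather than by its transcript. When DNA is damaged or growth signals are abnormal, p53 accumulates, binds paired copies of a short DNA motif near its targets, and raises genes for cell cycle arrest, cell death, DNA repair and stress metabolism. It is among the genes most often lost in human lung squamous carcinoma. Its relatives p63 and p73 bind the same motif, and p63 is a master regulator of squamous and basal epithelium.

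The levels below are log2 of the quantile-normalized signal, a log2 unit being a 2-fold step, and differences are SCC minus WT. Adjusted p-values are from limma over all 30374 tested probes, with a threshold of 0.05. SCC and WT tissue differed at many genes: of the 15586 genes with a tested brightest probe, 53.9% passed that threshold, 25.5% higher and 28.4% lower in SCC, and the median difference was -0.04. The labels were set against squamous and basal markers. Krt5 and Krt14, measured in both groups, passed as higher in SCC, by 11.35 and 10.40. On no WT array did Krt6a, Dsg3 or Pkp1 rise well above background, and they were tested only because they were detected in SCC, so they are no independent check. The summed signal of the 5 was 16.22 to 18.93 log2 units in SCC against 7.03 to 7.54 in WT. All 5 endothelial markers passed as lower, with a summed signal of 15.00 to 16.00 in SCC and 17.23 to 17.72 in WT. So did all 4 B cell markers (11.30 to 11.90 against 13.18 to 13.98), all 3 cardiac muscle markers (10.61 to 12.54 against 12.65 to 15.88) and all 3 club cell markers (17.18 to 19.32 against 19.25 to 19.72). The part of these cells in genes lower in SCC, such as Trp53inp1, Fas and the repair targets below, was not tested. SCC replicate 2 stood apart, with squamous markers at 16.22, where the other 4 SCC arrays had 18.65 to 18.93, and its correlation with WT arrays across probes was 0.940 to 0.946, where the other SCC arrays reached at most 0.905. SCC replicate 5 had 90.2% of probes well above background against 71.0% to 74.3% on the other 9 arrays. The arrays lay on 3 slides, and only slide 2 held both groups, namely WT replicate 5 and SCC replicates 1 to 3.

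The promoter letters of the 10 genes were looked at first, because the members are grouped as p53 and genes it acts on. The reference table of RefSeq promoters (mouse build GRCm38.p6, 250 bases before to 50 bases after each transcription start) held 12 windows for 9 of them, and Trp53inp1 was not in it. Each window was searched for the p53 half-site, a motif of 10 letters that reads alike on both strands. It was present in 2745 of all 32851 windows, or 8.36%. Among the members, 5 of 9 genes held it in at least 1 window, namely Trp53, Mdm2, Cdkn1a, Ccng1 and Gtse1, and the windows of Trp73, Sesn2, Phlda3 and Sfn did not. The members are counted here by gene, and some have more than 1 window, whereas the 8.36% counts windows. A match is a run of letters and not a measured binding site, and a missing match says nothing of sites outside the window. The stretches are shown 5′ to 3′ in the direction of the gene, with the half-sites in capitals.

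Trp53, chr11:69580264-69580313, plus strand: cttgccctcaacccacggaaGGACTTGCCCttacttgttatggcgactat
Mdm2, chr10:117710915-117710964, minus strand: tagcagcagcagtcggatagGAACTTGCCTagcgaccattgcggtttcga
Cdkn1a, chr17:29090876-29090967, plus strand: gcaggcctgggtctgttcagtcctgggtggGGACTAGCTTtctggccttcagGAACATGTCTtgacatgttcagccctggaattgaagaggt
Ccng1, chr11:40755442-40755491, minus strand: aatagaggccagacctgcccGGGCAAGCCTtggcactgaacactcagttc
Gtse1, chr15:85859945-85859974, plus strand: gagcaagttgGGGCTTGCCTctgacttgcc

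In Cdkn1a both half-sites lay in the first of its windows, and the window of its other transcription start held none. The first half-site began 73 bases and the second 51 bases before the start of that first window, with 12 bases between them. A pair of half-sites up to 13 bases apart was found in 24 of the 32851 windows (0.0731%), and Cdkn1a was the only member gene with one. The search took exact matches only, so near matches beside a marked half-site stay in small letters, and the spacing given is that of exact matches. The single half-sites began 75 bases before the start in Trp53, 186 in Mdm2 and 185 in Ccng1. In Gtse1 the match lay from base 10 to base 19 after the start of its second window, and its first window held none.

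**Figure D1:**
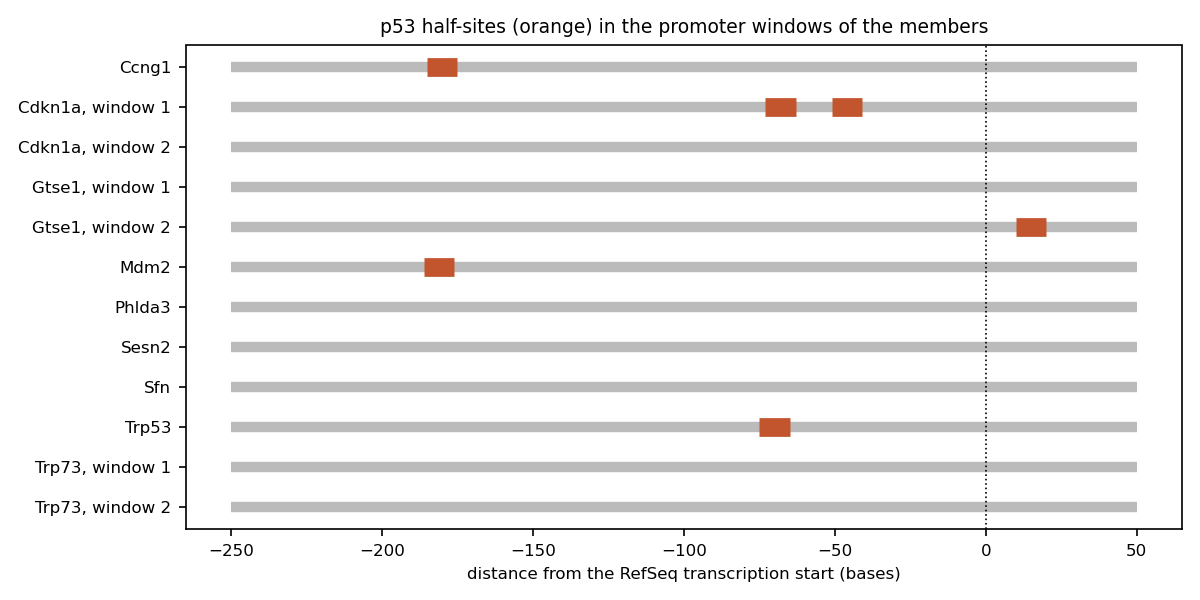
Position of p53 half-sites (orange) in the 12 RefSeq promoter windows (grey) of 9 member genes, against distance in bases from the transcription start (dotted line). Cdkn1a holds 2 matches in its first window, Ccng1, Gtse1, Mdm2 and Trp53 hold 1 each, and the other windows hold none.

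Among the 10 members, 5 passed the threshold, against a background of 53.9%. Sesn2, Phlda3, Gtse1 and Sfn were higher in SCC and Trp53inp1 was lower, while Trp53, Trp73, Mdm2, Cdkn1a and Ccng1 did not pass on their brightest probe. With a 2-fold difference required as well, Sesn2 and Gtse1 passed, 2 of 10 against a background of 24.9%. The values of both groups did not overlap for 4 members, against 41.4% of all genes tested, with Sesn2, Phlda3 and Gtse1 higher (18.9% of all genes) and Trp53inp1 lower (22.5%). The number of members that passed was thus close to that of the background, and the median of their differences was 0.61. All 16 member probes were well above background on all 10 arrays. The 5 members with a half-site in their window were Trp53, Mdm2, Cdkn1a, Ccng1 and Gtse1, and of these only Gtse1 passed on its brightest probe.

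**Figure D2:**
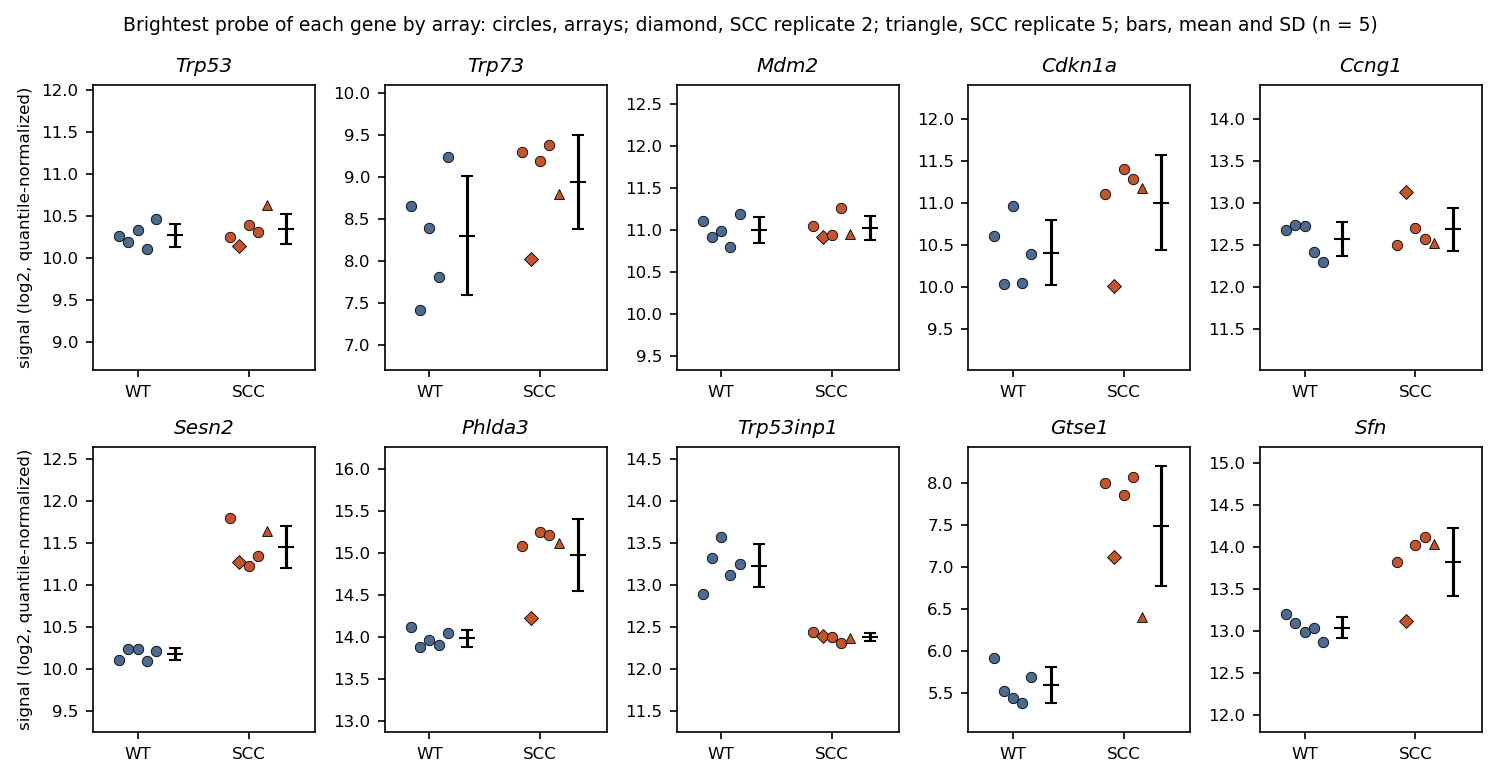
Signal of the brightest probe of each member on every array (log2, quantile-normalized), WT in blue and SCC in orange, with SCC replicate 2 as a diamond, SCC replicate 5 as a triangle and bars for mean and SD (n = 5). Each panel spans the same number of log2 units. Sesn2, Phlda3 and Gtse1 sit higher and Trp53inp1 lower in SCC without overlap, Trp53 and Mdm2 lie side by side in both groups, and the diamond is the lowest SCC array for Cdkn1a, Phlda3 and Sfn.

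Trp53, which encodes p53 itself, was at nearly the same level in tumours and lungs on its brighter probe. That probe read 10.27, 10.19, 10.34, 10.11 and 10.47 on WT replicates 1 to 5 and 10.25, 10.15, 10.40, 10.31 and 10.63 on SCC replicates 1 to 5. The ranges overlapped, with SCC replicate 5 above every WT array, and the difference of 0.07 (SE 0.11, adjusted p 0.627) did not pass. The dimmer Trp53 probe read 9.50, 9.23, 9.28, 9.53 and 9.33 in WT and 9.72, 9.50, 9.65, 9.58 and 10.01 in SCC. It was higher in SCC by 0.32 (SE 0.12, adjusted p 0.0437), with SCC replicate 2 inside the WT range. Within slide 2 alone the brighter probe differed by -0.21 and the dimmer by 0.29. Leaving out any single array apart from WT replicate 4 or SCC replicate 2 took the adjusted p of the dimmer probe past 0.05, up to 0.102.

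Trp73 encodes p73, a p53 relative that acts in differentiation and in the formation of multiciliated cells. Its brighter probe read 8.65, 7.42, 8.39, 7.81 and 9.24 in WT and 9.30, 8.02, 9.19, 9.38 and 8.80 in SCC. The groups overlapped, WT arrays alone spread over more than a log2 unit, and the difference of 0.64 (SE 0.37, adjusted p 0.180) did not pass. The dimmer probe read 7.54, 7.21, 7.56, 7.09 and 7.65 in WT and 7.88, 9.57, 8.05, 8.17 and 7.93 in SCC, and every SCC array lay above every WT array. That probe was higher by 0.91 (SE 0.31, adjusted p 0.0342). SCC replicate 2 was the lowest SCC array on the brighter probe and the highest by far on the dimmer one, and without it the dimmer probe differed by 0.60 (adjusted p 0.00463). Leaving out any of WT replicates 1 to 4 or SCC replicate 4 took that probe past 0.05, up to 0.0768. Within slide 2 the brighter probe differed by -0.40 and the dimmer one by 0.85. Of 3 markers of ciliated cells, in which p73 is expressed, 1 was lower in SCC and 2 did not pass. Their summed signal was 12.22 to 13.78 in WT and 10.84 to 13.22 in SCC, and its part in the result was not tested.

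Trp63, the third gene of the family and no member of the set, differed far more than either. It read 4.97, 5.70, 5.35, 6.0 and 5.50 in WT and 13.24, 12.13, 13.45, 12.82 and 13.10 in SCC, a difference of 7.44 (SE 0.27, adjusted p 2.13e-07). On no WT array did its dimmer probe stand well above background, and that probe was at least 3.12-fold higher in SCC. Among the SCC arrays Trp63 was lowest on replicate 2, as was the squamous marker sum, and the other 4 arrays were not in the same order on both.

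Mdm2, the ligase that degrades p53 and is raised by it, did not differ on its brighter probe beyond the spread. That probe read 11.10, 10.91, 10.99, 10.80 and 11.19 in WT and 11.05, 10.91, 10.94, 11.26 and 10.95 in SCC. The difference was 0.02 (SE 0.11, adjusted p 0.866), the groups overlapped, and the sign turned without WT replicate 4 (-0.03), without SCC replicate 4 (-0.04) and within slide 2 (-0.22). The dimmer probe read 7.47, 7.74, 7.77, 7.57 and 7.55 in WT and 7.81, 7.72, 8.01, 8.02 and 7.92 in SCC. It was higher by 0.28 (SE 0.10, adjusted p 0.0397), a 1.21-fold step, and SCC replicate 2 again lay inside the WT range. Leaving out any of WT replicates 1, 4 and 5 or SCC replicates 1, 3, 4 and 5 took its adjusted p past 0.05, up to 0.0934, and with normexp it differed by 0.16 and did not pass (0.0819).

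Among 16 regulators of p53, 4 were higher and 4 lower (25.0% each, against 25.5% and 28.4% of all genes), with a median difference of 0.07, so their counts were those of the background. Of the checkpoint kinases, Chek1, the kinase of stalled replication forks, was higher by 1.82 and Chek2, which acts after double-strand breaks, by 1.57 (adjusted p 0.000132 and 6.09e-05), whereas Atr, which activates Chek1, was lower by 0.53 (adjusted p 0.00157). With normexp Chek1 differed by 1.04 and Chek2 by 0.76. Atm, the kinase that activates Chek2, differed by 0.15 on its brighter probe (adjusted p 0.569) and by 0.68 on the other (adjusted p 0.0872) and did not pass. Ppp1r13l, which encodes the p53 inhibitor iASPP, a protein of stratified epithelium, was at 7.26 to 7.55 in WT and 8.15 to 10.04 in SCC, higher by 2.03. Its other probe differed by -0.22 and did not pass (adjusted p 0.384). Trp53bp2, which encodes ASPP2, a cofactor that helps p53 act on apoptosis genes, was lower by 1.48 log2 units, at 12.75 to 12.98 in WT and 11.09 to 11.89 in SCC. Hipk2, a kinase that phosphorylates p53, differed by -0.47 on its brightest probe (adjusted p 0.0445). That adjusted p rose above 0.05 when any WT array or SCC replicate 4 was left out (up to 0.0942) and with scaling to the 75th percentile (0.162). Without SCC replicate 2 the difference was -0.31. The other Hipk2 probes differed by 0.06 and -0.19 and did not pass (adjusted p 0.843 and 0.484). Mdm4, the partner of Mdm2, differed by -0.03, and Usp7, which removes ubiquitin from both p53 and Mdm2, had an adjusted p of 0.999. Cdkn2a, whose Arf product holds Mdm2 in check, was well above background on only 4 of 5 arrays in each group, so its range takes in readings near background. It was at 4.29 to 5.45 in WT and spread from 2.51 on SCC replicate 2 to 7.45 on SCC replicate 3, and its difference of 0.71 did not pass (adjusted p 0.488). Ppp1r13l (adjusted p 0.0960), Atr (0.0544) and Hipk2 (0.446) did not pass with slide as a fixed block.

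The arrest targets came next. Cdkn1a encodes p21, the inhibitor of cyclin-dependent kinases through which p53 halts the cell cycle, and it had 1 probe. It read 10.61, 10.04, 10.96, 10.05 and 10.39 in WT and 11.11, 10.01, 11.41, 11.29 and 11.18 in SCC. On 4 SCC arrays it was above every WT array, and on SCC replicate 2 it was below all of them. The difference of 0.59 (SE 0.28, adjusted p 0.111, exact permutation p 0.103) did not pass, and without SCC replicate 2 it was 0.84 (adjusted p 0.00518). Within slide 2 the difference was 0.45.

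Sfn encodes 14-3-3 sigma, a p53-induced protein of stratified epithelia that keeps cyclin B and Cdk1 in the cytoplasm. Its brighter probe read 13.20, 13.10, 12.99, 13.04 and 12.87 in WT and 13.82, 13.12, 14.02, 14.12 and 14.04 in SCC. It was higher by 0.78 (SE 0.18, adjusted p 0.00645), with 4 SCC arrays above all WT arrays and SCC replicate 2 inside the WT range. With slide as a fixed block it did not pass (0.143). The dimmer probe gave a much wider gap. It read 6.33, 5.91, 6.06, 6.10 and 6.24 in WT and 12.49, 8.72, 12.73, 12.97 and 12.79 in SCC, a difference of 5.81 (SE 0.74, adjusted p 0.000180), or 56.2-fold against 1.72-fold for the brighter probe. That fold depends on the processing: the difference was 6.62 without SCC replicate 2 and ranged from 4.52 to 6.48 over the processing alternatives. Both probes carried the same Sfn transcript accession, both put SCC replicate 2 lowest among the SCC arrays, and they differed in how far WT lung fell below the tumours. The squamous marker sum was likewise lowest in SCC on replicate 2, and the part of squamous cell content in the result was not tested.

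Gtse1 is a p53 target expressed in G2 and S phase that binds p53 and moves it out of the nucleus. It read 5.92, 5.53, 5.45, 5.39 and 5.70 in WT and 8.0, 7.12, 7.86, 8.08 and 6.41 in SCC. Every SCC array lay above every WT array, the lowest being SCC replicate 5, and the difference was 1.90 (SE 0.31, adjusted p 0.000780), or 3.73-fold. It was the largest difference among the brightest probes of the 10 members, but with another background correction (normexp) it was 0.95, below those of Sesn2 (1.17) and Phlda3, and with slide as a fixed block it was 1.96 and did not pass (adjusted p 0.0703).

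Ccng1 encodes cyclin G1, which recruits a phosphatase to Mdm2 and is a standard readout of p53 activity in the mouse. The brighter probe read 12.68, 12.74, 12.73, 12.42 and 12.30 in WT and 12.51, 13.13, 12.71, 12.58 and 12.53 in SCC. The groups overlapped, SCC replicate 2 was the highest array, and the difference was 0.12 (SE 0.15, adjusted p 0.513). The dimmer probe read 10.18, 10.14, 9.92, 9.96 and 9.69 in WT and 11.03, 10.39, 11.07, 10.97 and 10.94 in SCC. Here every SCC array was above every WT array, SCC replicate 2 was the lowest of them, and the difference of 0.90 (SE 0.15, adjusted p 0.000969) passed. Both probes carried the same transcript accession, so that Ccng1 passed on 1 probe and not on the other.

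Sesn2 encodes sestrin 2, a stress protein that restrains mTORC1 and that both p53 and the amino acid response switch on. It read 10.11, 10.24, 10.24, 10.09 and 10.21 in WT and 11.80, 11.27, 11.23, 11.34 and 11.64 in SCC. WT arrays lay within a narrow band, all 5 SCC arrays were well above it, and SCC replicate 2 did not stand apart. The difference was 1.28 (SE 0.12, adjusted p 4.08e-05), or 2.43-fold, and within slide 2 it was 1.23. Sesn2 was the 1 member whose brightest probe still passed once slide entered the fit as a fixed block (adjusted p 0.0223), where 14.9% of all genes passed.

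Phlda3 encodes a small protein that competes with Akt for membrane lipids and so lowers survival signalling. It read 14.13, 13.89, 13.97, 13.91 and 14.05 in WT and 15.09, 14.23, 15.25, 15.22 and 15.12 in SCC. All SCC arrays were above all WT arrays, replicate 2 narrowly so. The difference was 0.99 (SE 0.19, adjusted p 0.00196), and without SCC replicate 2 it was 1.18 (adjusted p 2.92e-06). Within slide 2 it was 0.80, and with slide as a fixed block it did not pass (adjusted p 0.175).

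Trp53inp1, a p53 target that promotes apoptosis and autophagy, was the 1 member that was lower in SCC. Its brighter probe read 12.89, 13.32, 13.57, 13.11 and 13.24 in WT and 12.44, 12.39, 12.38, 12.31 and 12.36 in SCC. The SCC arrays lay close together, replicate 2 included, and all were below all WT arrays, by -0.85 on average (SE 0.12, adjusted p 0.000398). With slide as a fixed block the difference was -0.84 and did not pass (adjusted p 0.0656). The dimmer probe differed by -0.15 (SE 0.15, adjusted p 0.432), with overlapping groups.

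Both probes of a gene therefore told different stories for several members. Of the 6 members with 2 probes, Trp53, Trp73, Mdm2 and Ccng1 passed only on the dimmer one, Trp53inp1 only on the brighter one, and Sfn on both. Counted by probe, 9 of the 16 were higher and 1 lower at the threshold, where 49.0% of all 30374 probes passed, 22.4% higher and 26.6% lower. With a 2-fold difference as well 3 of the 16 passed (Gtse1, Sesn2 and the dimmer Sfn probe), against 22.9% of all probes. The groups did not overlap on 7 of the 16, against 37.4% of all probes. With the mean over all probes of a gene in place of the brightest, 7 of 10 members passed, against 54.4% of all genes, with Sfn at 3.30 and Trp53inp1 at -0.50. With slide as a fixed block the dimmer probes of Ccng1 (adjusted p 0.0358) and Sfn (0.0455) passed, and those of Trp53 (0.424), Trp73 (0.374) and Mdm2 (0.343) did not. The annotation names 1 transcript accession for each probe, and the stretch of it that a probe reads is not given in the sources used here.

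**Figure D3:**
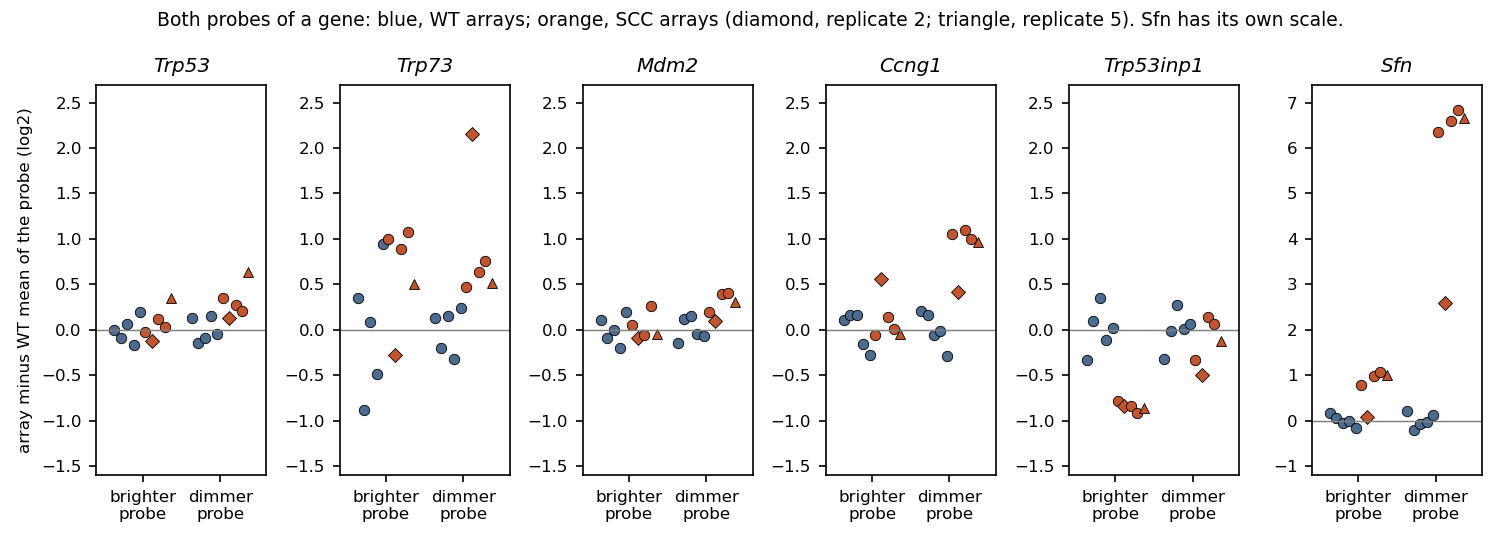
Each array minus the WT mean of the same probe (log2) for the 6 members with 2 probes, WT in blue and SCC in orange, SCC replicate 2 as a diamond and SCC replicate 5 as a triangle. Sfn is drawn on its own scale, where SCC arrays stand 0.78 above WT on average on the brighter probe and 5.81 on the dimmer one. For Ccng1 all 5 orange points lie above the WT range on the dimmer probe and 1 does on the brighter one, and for Trp53inp1 all 5 lie below it on the brighter probe and 2 do on the dimmer one.

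The wider set of p53 targets moved in both directions. Of 42 genes in 4 lists, 41 had a probe, Sco2 being the exception, and all 41 were tested. In these lists 16 genes were higher and 10 lower, or 39.0% and 24.4% against 25.5% and 28.4% of all genes, with a median difference of 0.12 against -0.04. Among the 34 tested targets that are no member of the set, 12 were higher and 9 lower, with a median of 0.09. Without SCC replicate 2, 20 of the 41 were higher and 11 lower, where 63.9% of all genes passed. With slide as a fixed block 6 were higher and 2 lower, where 14.9% of all genes passed.

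Of 13 arrest targets 8 were higher, the largest share among the 4 target lists, with 2 lower (61.5% and 15.4%, against 25.5% and 28.4% of all genes) and a median of 0.78. Psrc1, a spindle protein, was at 8.02 to 8.86 in WT and 9.61 to 12.10 in SCC, higher by 3.17 (adjusted p 0.000362). Ckap2, which stabilises spindle microtubules, was higher by 2.66 (1.74 with normexp) and E2f7, a repressor of E2F targets, by 2.12. All 3 are also genes of cycling cells, and all 3 were lowest in SCC on replicate 2. Rprm, which encodes reprimo, a G2 arrest protein, was lower, at 10.33 to 10.69 in WT and 8.99 to 9.92 in SCC, a difference of -1.19 (adjusted p 0.000510). Btg2, an antiproliferative gene, was lower by 0.46 log2 units on its brightest probe (adjusted p 0.0331), with SCC replicate 2 at 13.32, near the top of the WT range. Leaving out any array but WT replicate 1 or SCC replicate 2 took that probe past 0.05 (up to 0.0776). The other Btg2 probes differed by -0.18 and -0.17 and did not pass (adjusted p 0.210 and 0.218). Psrc1 (adjusted p 0.0597), E2f7 (0.0794) and Btg2 (0.527) did not pass with the slide block.

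In the list for apoptosis and survival, 6 of 15 were higher and 3 lower (40% and 20%, against 25.5% and 28.4% of all genes). Perp, which encodes a desmosome protein of stratified epithelia that is a target of both p53 and p63, was at 12.04 to 12.30 in WT and 14.41 to 16.52 in SCC, higher by 3.84 (adjusted p 3.91e-05). Trp53i11 was higher by 1.40, and Tnfrsf10b, a receptor for the death ligand TRAIL, by 1.12 (0.47 with normexp and 1.71 with slide as a fixed block). Another Tnfrsf10b probe differed by 0.70 and did not pass (adjusted p 0.209). The remaining one was well above background on no WT array and was at least 2.60-fold higher in SCC. The other death receptor in the list went the opposite way: Fas was at 13.02 to 13.60 in WT and 11.19 to 12.35 in SCC, a difference of -1.64 (adjusted p 0.000315). Bbc3, which encodes the BH3-only protein Puma, was at 11.87 to 12.28 in WT and 11.36 to 11.57 in SCC, a difference of -0.63 (adjusted p 0.000864). With slide as a fixed block Fas (adjusted p 0.0567) and Bbc3 (0.198) did not pass. Bax, the effector that opens mitochondria, differed by 0.03 and did not pass (adjusted p 0.767).

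Of 7 tested metabolism and stress targets, 2 were higher and 2 lower (28.6% each), close to the 25.5% and 28.4% of all genes. Sesn2 was higher as given above, as was the sestrin Sesn3 among the relatives (by 0.46, adjusted p 0.0431, with overlapping groups), while Sesn1 was at 12.65 to 12.82 in WT and 11.50 to 11.99 in SCC, a difference of -0.97 (adjusted p 7.07e-05). Prkab1, which encodes a subunit of AMPK, a kinase that Lkb1 activates, was higher by 1.18, with SCC replicate 2 the highest of the SCC arrays. Ak1, an adenylate kinase, was lower by 0.44 log2 units. Of the 6 DNA repair targets 3 were lower and none was higher, against 28.4% and 25.5% of all genes, with a median of -0.32. Rrm2b, the p53-induced subunit of ribonucleotide reductase, differed by -1.24, Xpc, which recognises damaged DNA, by -0.93 and Ercc5, a repair nuclease, by -0.31. Ercc5 no longer passed when any array other than SCC replicate 2 was left out (adjusted p up to 0.0833). Under the slide block none of these 3 passed (adjusted p 0.0506, 0.0928 and 0.406), nor did Prkab1 (0.0680) and Ak1 (0.257).

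**Figure D4:**
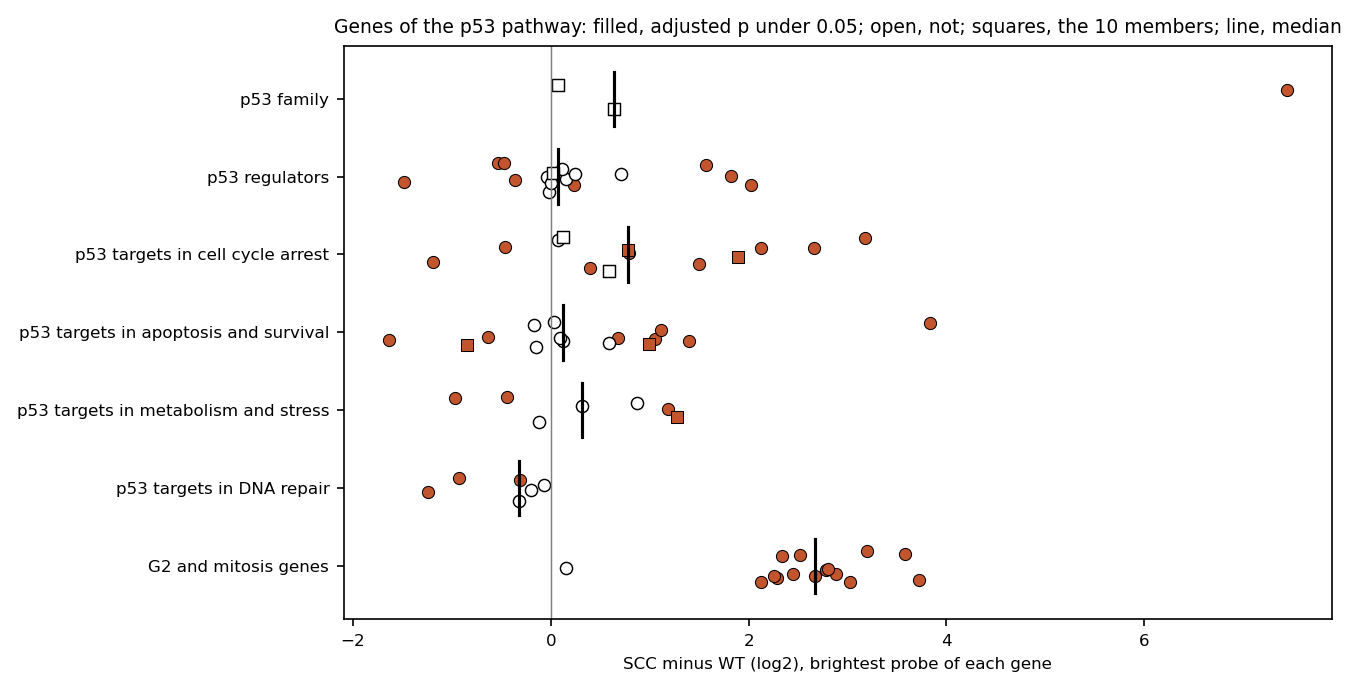
Difference between SCC and WT (log2) for every tested gene of the p53 family, its regulators, 4 lists of p53 targets and G2 and mitosis genes, brightest probe of each gene, with the list median as a vertical line. Filled points passed an adjusted p of 0.05, open points did not, and squares are the 10 members. The target lists lie on both sides of 0, while 14 of 15 G2 and mitosis genes stand 2 log2 units or more to the right.

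Genes that p53 lowers through p21, the effectors of G2 and mitosis, were nearly all higher in SCC. Of 15, 14 passed as higher in SCC and all 14 also exceeded 2-fold, against 25.5% and 11.6% of all genes. Cdc25c was tested only because it was detected in SCC, and without it 13 of 14 passed. The list had a median difference of 2.67, and Bub1 differed by 0.15 and did not pass, although its other probe was higher by 1.59 (adjusted p 0.00259). Ccnb1, the mitotic cyclin B1, was at 4.85 to 6.24 in WT and 7.89 to 9.84 in SCC, higher by 3.72 (adjusted p 5.01e-05), or by 2.35 with normexp. Top2a, the topoisomerase of dividing cells, was higher by 3.20. Cdc25c, the phosphatase that activates Cdk1, was well above background on no WT array and was at least 5.69-fold higher in SCC, a bound that holds for the main background handling only, since the fitted difference with normexp was 0.97. The summed signal of the 15 genes was 12.63 to 13.47 in WT, 14.45 on SCC replicate 2 and 15.71 to 16.05 on the other 4 SCC arrays. The 4 arrays with the higher sum were also the 4 on which Cdkn1a was above the WT range. The motif TTTGAA, read on either strand, is a core of the element by which G2 genes are repressed outside G2. It was found in 8 of the 12 mitosis genes with a promoter window, which had 1 window each, against 17.9% of all windows. None of the 12 windows of the 9 member genes held TTTGAA. No letters of a half-site can spell that motif.

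Close relatives of the members did not all share their direction. Of 14 relatives, 6 were higher and 5 lower (42.9% and 35.7%, against 25.5% and 28.4% of all genes), with a median of 0.20. Of the p21 relatives, Cdkn1c (p57) was at 11.89 to 12.36 in WT and 9.19 to 11.25 in SCC, a difference of -1.95 (adjusted p 0.000921), and Cdkn1b (p27) differed by -1.18 (adjusted p 0.00205), with WT replicate 4 at the level of SCC replicate 2. The 2 relatives of Phlda3 went with it: Phlda1 was higher by 1.30 and Phlda2 by 1.33, both without overlap between the groups. Trp53inp2, the relative of Trp53inp1, went against it and was higher by 1.20 (adjusted p 0.00121). Cdkn1c (adjusted p 0.0762), Cdkn1b (0.0795) and Trp53inp2 (0.103) did not pass with the slide block. The other Cdkn1b probe differed by -0.35 (adjusted p 0.122).

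SCC replicate 2 set much of the spread among the tumours. It was the lowest SCC array on the brightest probe for Trp53, Trp73, Mdm2, Cdkn1a, Phlda3 and Sfn, 6 of the 10 members, and the highest for Ccng1, and it was within the range of the other SCC arrays for Sesn2, Trp53inp1 and Gtse1. Squamous markers summed to 16.22 on that array, G2 and mitosis genes to 14.45 and neutrophil markers to 14.04, the last below the 14.73 to 15.54 of the WT arrays and the 16.72 to 16.86 of the other SCC arrays. Of the 5 neutrophil markers 3 passed as higher in SCC and 2 did not pass. Endothelial markers were at 16.00 on it, higher than the 15.00 to 15.34 of the other SCC arrays. The part of these cell contents in the results was not tested. Without SCC replicate 2, 6 of 10 members passed, Cdkn1a joining the 5, while the share of all genes that passed rose to 63.9%. Without replicates 2 and 5 together 7 passed, Trp73 joining as well (difference 0.99, adjusted p 0.0425), against 66.7% of all genes.

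The genes most like a member across arrays were sought after each gene's group means were taken off, so that likeness describes the spread within groups and not the difference between them. It was computed over 10 arrays for 14109 genes well above background on all of them, with no test, and with 2 groups of 5 it rests largely on arrays that stand apart. Sfn was most like Serpinb1a (r = 0.994), Car13 (0.987) and Mfsd5 (0.982). Phlda3 was most like Cd109 (0.993), Mall (0.992) and Prkx (0.991). For Gtse1, which was low on SCC replicate 5 rather than on replicate 2, the nearest genes were Eml5 (0.989), Spire1 (0.969) and Zfp236 (0.969).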

How the data were processed

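The authors extracted total RNA, labelled it with Cy3 and read 1 Agilent 4x44K array per sample with Feature Extraction 12. The deposited scanner files hold a background-subtracted linear intensity for each spot. The authors also deposited a log2 matrix, which matched log2 of the quantile-normalized intensity at r of at least 0.9999 and was an alternative only. The authors' analysis of variance was replaced by limma.

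Outlier-flagged and control spots were left out, spots of a probe were averaged, and values were quantile-normalized. A probe was tested if at least 0.5 of its spots were well above background on at least 4 of 5 arrays of a group, which left 30374 of 41174. The fit used limma 3.58.1 (R 4.3.3; lmFit and eBayes, two-sided) on all 10 arrays without covariates, p-values were adjusted over tested probes by the Benjamini-Hochberg method, and the fit was tested on simulated data. Permutation tests were exact over 252 splits (smallest p 0.00794). No probe was saturated. The number of arrays limits the precision. Folds against a group not well above background are bounds. They set the SCC mean against, per WT array, the probe's own signal or the lowest one that any well-detected probe had there, whichever was higher.

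Symbols came from RefSeq (GRCm38.p6) by accession for 28223 probes (68.5%), and promoter letters from the same release, searched in Python 3.11.15. Probe positions are not given in the sources used here. Members and lists were chosen with earlier results of these data known. The genes named are the members, Trp63 and, per list, up to 3 with the largest positive and 3 with the largest negative difference among those that passed. Mdm4, Usp7, Cdkn2a, Atm, Bax, Bub1 and Sesn3 fall outside that rule and were picked after their values were seen. Same-numbered WT and SCC samples did not deviate together (correlations -0.10 to 0.01). Alternatives were 75th percentile scaling, normexp on median signals with an offset of 50 (the files hold no mean signal), the matrix, other filters, slide and replicate blocks, array weights, a t-test, other probes and leaving out arrays.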

Additional observations from a re-analysis of the deposited data

Results flagged for a closer look

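A gap rule picked out arrays that stood apart: in a group of 5 arrays, the gap between the highest or lowest array and the next, divided by the range of the group, had to exceed 0.71. Of 106 groups examined 27 did so, where chance gives about 1 in 20, and 20 of the 27 were gaps on SCC replicate 2. No explanation for them was tested.

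Among the members, SCC replicate 2 was low for Cdkn1a (0.786 of the range), Phlda3 (0.842), the dimmer Ccng1 probe (0.804) and the dimmer Sfn probe (0.888), and high for the dimmer Trp73 probe (0.832). WT replicate 2 was high on the dimmer Trp63 probe (0.743), which was not well above background in WT.

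In the wider lists SCC replicate 2 was low for Ppp1r13l (0.738), Psrc1 (0.88), Ckap2 (0.763), E2f7 (0.792), Perp (0.867), Ccnb1 (0.752) and Top2a (0.798). It was high for Trp53bp2 (0.731), Rprm (0.809), Btg2 (0.731), Xpc (0.711) and Prkab1 (0.726). For all of these but Prkab1, the array lay nearer to WT than the other 4 SCC arrays did. Its squamous marker sum (0.898), neutrophil marker sum (0.948) and sum of G2 and mitosis genes (0.786) were low as well.

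SCC replicate 5 was low for Tnfrsf10b (0.827) and high in its percent of probes well above background (0.859). Gaps in WT were on replicate 5 for Rprm, high (0.838), replicate 1 for Trp53i11, high (0.742), replicate 2 for Ak1, high (0.772), and replicate 4 for Cdkn1b, low (0.837).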

How the results depend on the processing

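Only slide 2 held both groups, with 1 WT array, and with slide as a fixed block the probes called at an adjusted p below 0.05 and 2-fold went from 6954 to 2988 (1402 higher, 1586 lower), and at the adjusted p alone the members passing from 5 to 1 (Sesn2), the listed p53 targets from 26 to 8 of 41 and all genes from 53.9% to 14.9%. Under that block Phlda3 differed by 0.80, Trp53inp1 by -0.84, Gtse1 by 1.96 (adjusted p 0.0703) and Sfn by 0.78 (adjusted p 0.143), none of which passed, and Trp53 (-0.21), Trp73 (-0.40) and Mdm2 (-0.22) changed sign. Slide 2 alone gave the same values, as it must when no other slide holds both groups, so it is no second check. Ccng1 there differed by 0.48. The single WT array of that slide, replicate 5, was the highest WT array for Trp53 (10.47), Trp73 (9.24) and Mdm2 (11.19). The block leaves fewer arrays to compare. Of 30 other named genes 16 no longer passed. Without the 2-fold requirement 14878 probes passed, and normexp gave 3966 called probes. With both requirements 2 members passed.

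The choice of probe moved Trp53 to 0.32, Trp73 to 0.91, Mdm2 to 0.28 and Ccng1 to 0.90, all past the threshold, and Trp53inp1 to -0.15, no longer past it. The mean over probes moved Trp73 to 0.77 and Ccng1 to 0.51, both past it. With array weights Trp73 (1.13) and Cdkn1a (0.77) passed and Ccng1 changed sign (-0.037). Without SCC replicates 2 and 5 Trp73 (0.99) and Cdkn1a (0.86) passed.

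Leaving out 1 array gave 6385 to 8135 called probes and, at the adjusted p alone, 5 to 6 members, 23 to 31 listed targets and 46.7% to 63.9% of all genes, the highest of each without SCC replicate 2. Differences ranged from 0.00 to 0.12 for Trp53, 0.42 to 0.87 for Trp73, -0.035 to 0.071 for Mdm2 (-0.026 without WT replicate 4), 0.49 to 0.84 for Cdkn1a, 0.01 to 0.17 for Ccng1, 1.19 to 1.34 for Sesn2, 0.92 to 1.18 for Phlda3, -0.93 to -0.76 for Trp53inp1, 1.75 to 2.17 for Gtse1 and 0.71 to 0.96 for Sfn. The replicate numbers did not pair the samples. With the replicate number as a block 6571 probes were called, and 5 members, 24 listed targets and 44.6% of all genes passed at the adjusted p alone. Scaling to the 75th percentile moved the median difference of all probes from -0.09 to 0.03 and the share of higher calls from 43.3% to 53.2%. On the brightest probes 5 members passed there too.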
